A study of Mus musculus with 36 samples.

Results

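The miR-130 and miR-148 families of microRNAs (miRNAs) were followed by small RNA sequencing during an inducible passage of mouse pre-B cells to a later stage. Members were the rows named for miR-130a, miR-130b, miR-301a, miR-301b, miR-148a, miR-148b or miR-152, with any arm suffix. This rule found 11 of the 469 miRNAs of the table, 6 of the miR-130 family, which holds miR-130 and miR-301, and 5 of the miR-148 family, which holds miR-148 and miR-152. In the table each name carries the prefix of the mouse, as in mmu-miR-130b-5p and mmu-miR-130b-3p, which is left out below. Both arms of miR-130a and the 5p arm of miR-148a were not analysed here. The cells were B3, a mouse pre-B cell line transduced with a retroviral vector and sorted for its GFP. The Ikaros line carried Ikaros, a transcription factor of lymphocyte development, fused to the ERt2 hormone-binding domain, so that 4-hydroxytamoxifen (4-OHT) brings the protein into the nucleus. The control line carried ERt2 and GFP without Ikaros. The labels give 0.5 uM 4-OHT for all 12 groups, whereas 0 h stands for no 4-OHT in the study's methods. Each line was sampled at 0, 2, 6, 12, 18 and 24 h with 3 replicates, numbered 1, 2 and 4, which makes 36 samples.

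A microRNA is cut from a hairpin precursor as a short duplex, and either strand, called the 5p or the 3p arm after its side of the hairpin, can be loaded into an Argonaute protein. The loaded strand lowers the output of mRNAs that pair with its seed, bases 2 to 8 from its 5′ end. Both families are conserved in mammals. DNA methyltransferases are known targets of the miR-148 family. In B cells miR-148a is known for its part in tolerance and in the formation of plasma cells.

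A mature sequence was found in RefSeq (GRCm38.p6) for 10 of the 11 members, all but miR-301b-3p. The sequences below are those on which the results turn, 5′ to 3′, with the seed in capitals, and they show which members share a seed.
miR-130b-3p: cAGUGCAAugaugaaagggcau
miR-301a-3p: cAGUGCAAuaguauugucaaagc
miR-148a-3p: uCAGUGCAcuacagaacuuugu
miR-148b-3p: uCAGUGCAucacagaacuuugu
miR-152-3p: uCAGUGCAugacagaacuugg
miR-130b-5p: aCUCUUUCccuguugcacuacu
miR-301a-5p: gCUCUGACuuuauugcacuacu
miR-301b-5p: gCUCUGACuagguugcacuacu
miR-152-5p: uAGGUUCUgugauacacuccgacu
The seeds of the 3p arms of the families overlapped by 6 bases, shifted by 1 position, so that AGUGCAA of the one and CAGUGCA of the other hold the same core. Between miR-148a-3p and miR-148b-3p the substitutions were C9U and U10C, and between miR-148b-3p and miR-152-3p they were C10G and U20G, with positions counted from 1 at the 5′ end and the first-named miRNA given first. The 5p arms of miR-301a and miR-301b had the same seed and differed by U10A, U11G and A12G, whereas the 5p arm of miR-130b had another seed. No miRNA outside the members carried a member's seed among the 391 miRNAs of the table with a mature sequence.

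The hairpins lie at 5 places in the genome (GRCm38). Mir130b (chr16:17124061-17124142, minus strand) and Mir301b (chr16:17124400-17124496, minus strand) lie 257 bases apart within an intron of 2610318N02Rik, on its strand. These were the only member hairpins with a neighbouring hairpin within 10000 bases. Mir301, the hairpin of miR-301a (chr11:87113004-87113089, plus strand), lies in an intron of Ska2, which encodes a kinetochore protein. Mir148b (chr15:103285125-103285221, plus strand) and Mir152 (chr11:96850393-96850465, plus strand) lie in introns of Copz1 and Copz2, which both encode a subunit of the COPI vesicle coat. Mir148a (chr6:51269812-51269910, minus strand) lies between genes, 162760 bases from Nfe2l3.

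The deposited values were log2 levels, normalised and corrected for sequencing batch by the authors. Sample medians lay between 3.70 and 4.15, and single values between 0.09 and 19.30. The table holds no counts, so the depth behind a value is unknown, and its precision rests on the 3 replicates, each from its own culture batch. All 5 haematopoietic markers looked for were in the table, with mean log2 levels of 18.15 for miR-181a-5p, 14.62 for miR-142-5p, 13.21 for miR-142-3p, 10.77 for miR-155-5p and 3.90 for miR-150-5p. Of 16 markers of other cell types 8 were in the table, 7 of them with means up to 6.50 and miR-9-5p, known from neurons, with a mean of 13.30. In bulk samples such as these, fewer cells with a miRNA and less of it per cell cannot be told apart.

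The members spanned most of the range of the table. The 3p arms of the miR-130 family were among its abundant miRNAs, with median log2 levels over the 36 samples of 13.60 for miR-301a-3p, 12.22 for miR-130b-3p and 11.37 for miR-301b-3p. By mean level they held ranks 16, 27 and 39 of 469. On the linear scale, their summed level was a median of 1.46% of the table total. Within this sum the median share was 63.0% for miR-301a-3p, 23.9% for miR-130b-3p and 13.4% for miR-301b-3p. Mature miRNAs are of nearly one length, 21 to 24 bases here, so levels were compared without a length correction. The 5p arm of miR-130b was also abundant (10.71), whereas those of miR-301a (6.24) and miR-301b (5.43) were far below their 3p arms.

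In the miR-148 family miR-148b dominated. MiR-148b-3p had a median log2 level of 10.90 and held a median of 99.5% of the summed linear level of the 3p arms, a sum that was 0.146% of the table total. MiR-148b-5p followed at 9.67. The other members were lower, with 3.96 for miR-152-5p, 2.73 for miR-152-3p and 1.14 for miR-148a-3p, at ranks 225, 296 and 444 of 469 by mean level. Ordered by level, the members ran from miR-301a-3p through miR-130b-3p, miR-301b-3p, miR-148b-3p, miR-130b-5p, miR-148b-5p, miR-301a-5p, miR-301b-5p, miR-152-5p and miR-152-3p to miR-148a-3p. Over all samples, neighbours in this order overlapped except at 2 steps, that from miR-301a-3p (12.65 to 14.75) to miR-130b-3p (11.58 to 12.58) and that from miR-148b-5p (8.67 to 10.28) to miR-301a-5p (5.30 to 6.98).

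**Figure D1:**
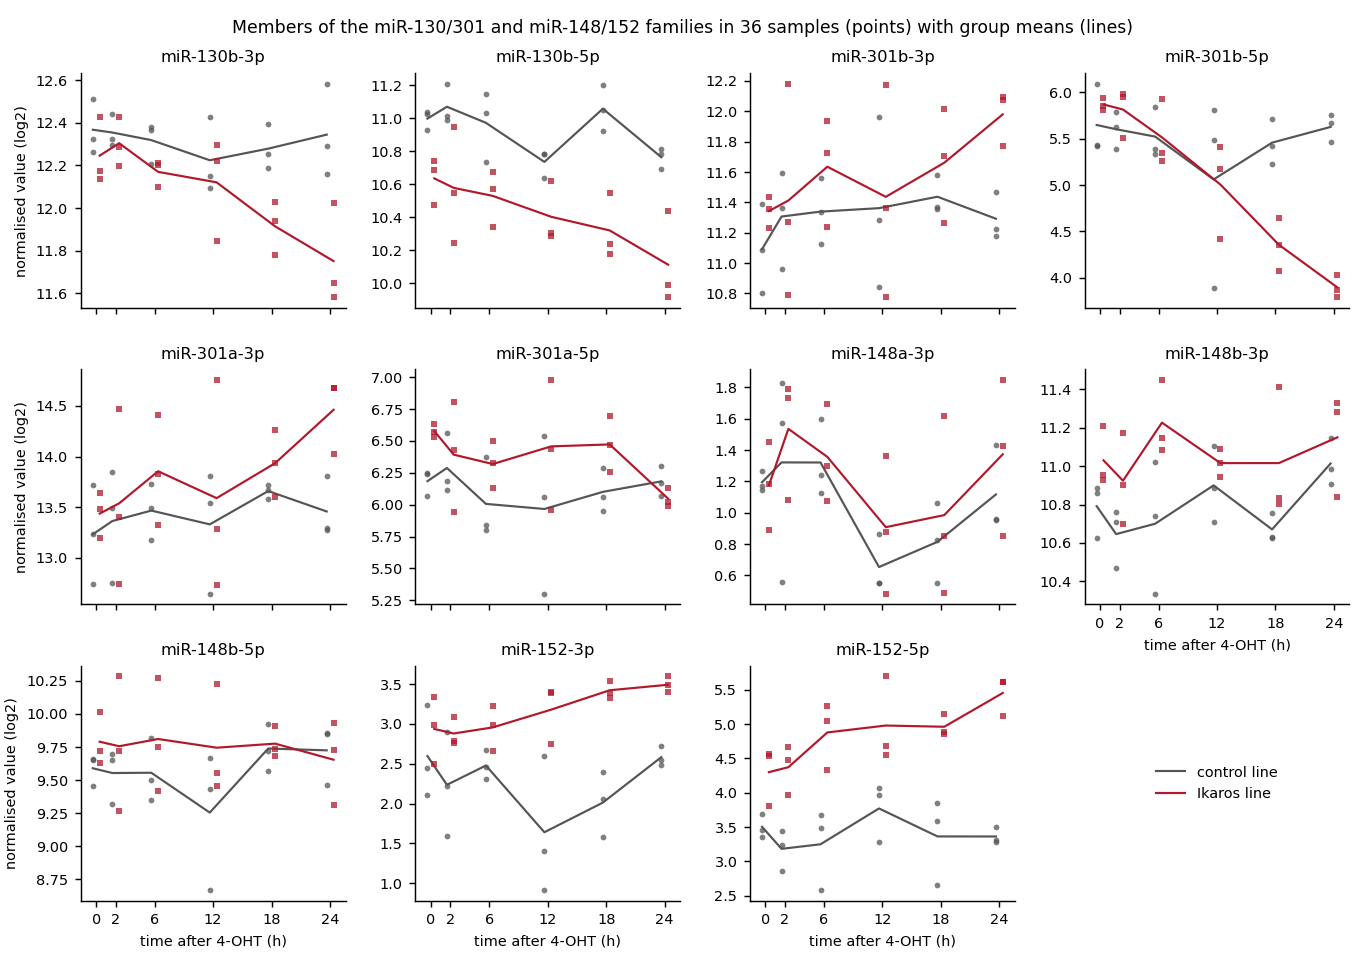
Normalised level (log2, y axis) of each of the 11 members against time after 4-OHT (hours, x axis) in the control line (grey circles) and the Ikaros line (red squares), where each point is 1 of 36 samples and lines join the means of 3. MiR-301b-5p falls in the Ikaros line from about 12 h to between 3.79 and 4.04 at 24 h. MiR-152-5p and miR-130b-5p keep the lines apart at all 6 times, miR-130b-5p only narrowly at 12 h. The y axes differ between panels.

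Line differences (Ikaros minus control) at each time ask which members differ under the same drug, and the one at 0 h asks how far the lines differed already. By limma with Benjamini-Hochberg adjustment over the 469 miRNAs, 0 of the 11 members passed an adjusted p of 0.05 at 0 h, against 8.53% of all miRNAs. There 2 members, miR-152-5p and miR-130b-5p, had an unadjusted p under 0.05, as did 75 of all 469 miRNAs. At 2, 6 and 12 h 2 members passed at each time, against 11.3%, 15.1% and 21.7% of all miRNAs. At 18 h 4 members passed (29.9% of all) and at 24 h 6 members (39.9% of all). In 3 of these 6 the Ikaros line had the higher level and in 3 the lower, against 17.9% and 22.0% of all miRNAs. The median line difference of the members at 24 h was 0.14 on the log2 scale and that of all miRNAs was -0.07. These counts are not read as particular to the families. Samples of the lines did not overlap for 4, 2, 3, 3, 6 and 7 of the 11 members from 0 h to 24 h, against 26.2%, 26.0%, 34.3%, 25.6%, 47.5% and 54.2% of all miRNAs. How many of all miRNAs were without overlap at all 6 times was not counted. The study's methods describe a pair of sequencing batches, which the labels do not give sample by sample. In the design drawn there, control and Ikaros samples of 2 h to 18 h were mostly run in different batches, some samples were run in both so that the batch effect could be estimated, and the samples of 0 h and 24 h shared a batch. At 2 h to 18 h the line differences therefore rest on the authors' batch correction, and what it left of a batch effect cannot be told apart from the line. Contrasts that take in samples of 2 h to 18 h, such as 24 h beyond 2 h and the interaction, rest on it too. Subtracting the median of each sample moved the median line difference of all miRNAs at 24 h from -0.07 to 0.17, so that every line difference in level at 24 h given below stands 0.23 higher on that scaling.

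**Figure D2:**
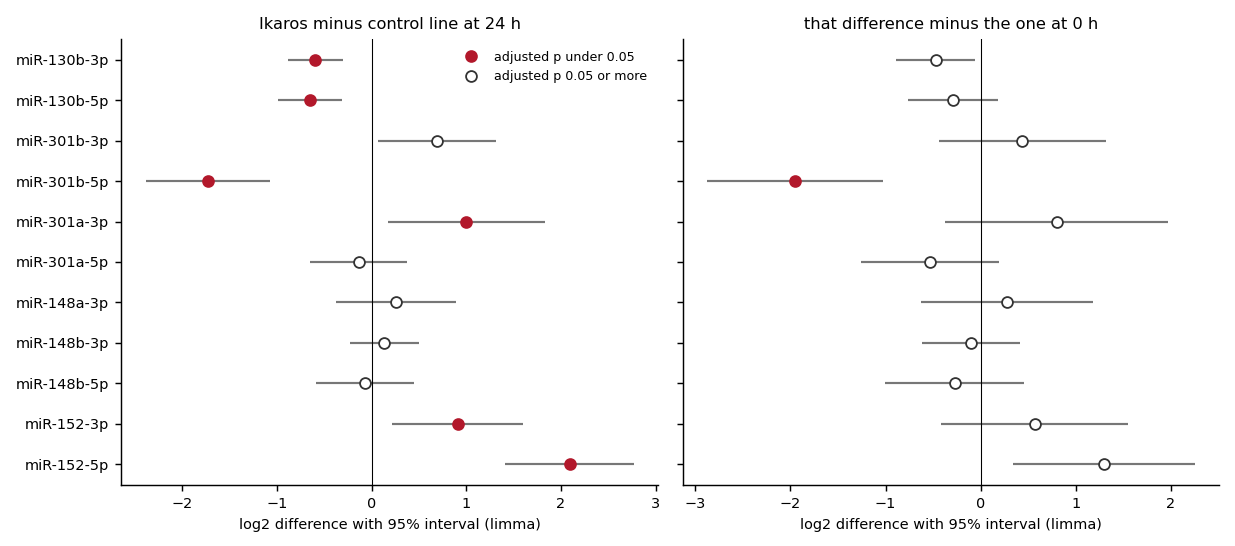
Line differences of the 11 members (log2, x axes) with 95% intervals from limma over 36 samples, at 24 h on the left and at 24 h minus 0 h on the right, where filled red circles mark an adjusted p under 0.05. At 24 h 6 members are called, from -1.73 for miR-301b-5p to 2.09 for miR-152-5p, and beyond the difference at 0 h only miR-301b-5p is called in the fit of all samples.

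MiR-301b-5p showed the clearest change with time. From 0 h to 6 h the lines overlapped, with 5.33 to 6.09 in the 9 control samples and 5.26 to 5.99 in the 9 Ikaros samples. At 12 h the control samples read 5.81, 3.89 and 5.49 and the Ikaros samples 5.42, 5.18 and 4.42, where replicate 2 of the control line stood far below the other two. At 18 h the control samples read 5.42, 5.72 and 5.23, and the Ikaros samples 4.65, 4.07 and 4.35. At 24 h they read 5.46, 5.67 and 5.75 against 3.86, 3.79 and 4.04. All Ikaros samples were thus below all control samples at 18 h and at 24 h. The line difference was -1.10 (SE 0.32, adjusted p = 0.0095) at 18 h and -1.73 (SE 0.32, adjusted p = 8.0e-05) at 24 h, a level 3.32-fold lower in the Ikaros line. Leaving out replicate 2 in every group gave -0.83 at 18 h with an adjusted p of 0.1006, whereas the call at 24 h held under all 11 alternatives (-1.80 to -1.50).

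The difference of miR-301b-5p at 24 h was also larger than those at the start. Beyond 0 h it was -1.95 (SE 0.45, adjusted p = 0.0037) and beyond 2 h -1.94 (SE 0.45, adjusted p = 0.0043), where 1 of the 11 members passed in each contrast against 12.37% and 14.29% of all miRNAs. Without replicate 1 the first was -1.92 with an adjusted p of 0.0821, and without replicate 4 the second was -1.76 with an adjusted p of 0.0872. Within the Ikaros line its level fell by 1.92 from 2 h to 24 h (SE 0.32, adjusted p = 4.1e-05), samples that share their culture batches but may differ in sequencing batch. In the control line the same change was 0.03 (95% interval -0.63 to 0.68), where 0 of 469 miRNAs passed and 33 had an unadjusted p under 0.05. The interaction of line and time over all 6 times gave F = 6.42 (adjusted p = 0.0069), the only member that passed against 13.0% of all miRNAs, but with any replicate left out F was 4.62 to 5.64 and the adjusted p 0.0728 to 0.1082.

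The 3p arm of the same hairpin gave no such fall. MiR-301b-3p read 11.47, 11.18 and 11.23 in the control samples at 24 h and 12.096, 12.073 and 11.771 in the Ikaros samples. The Ikaros samples were the higher ones without overlap, and the difference of 0.69 (SE 0.30, 95% interval 0.07 to 1.31) had an adjusted p of 0.0704. It passed under 5 of the 11 alternatives, among them with the sample medians subtracted (0.92, adjusted p = 0.0227). At the other 5 times its line difference lay between 0.07 and 0.30, with no call.

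Both arms of miR-130b, the neighbouring hairpin on the same strand, were lower in the Ikaros line at 24 h. MiR-130b-3p read 12.16, 12.29 and 12.58 in the control samples and 11.58, 11.65 and 12.02 in the Ikaros samples, and miR-130b-5p read 10.78, 10.82 and 10.69 against 9.91, 9.99 and 10.44. For neither arm did the lines overlap, although Ikaros replicate 4 was the highest of its group in both. The difference was -0.59 (SE 0.14, adjusted p = 0.0016) for the 3p arm, 1.51-fold lower, and -0.65 (SE 0.16, adjusted p = 0.0021) for the 5p arm, 1.57-fold lower. These calls were lost with the sample medians subtracted (-0.36 with an adjusted p of 0.0949 for the 3p arm and -0.42 with 0.0554 for the 5p arm). Without replicate 2 they were lost too, at -0.57 and 0.0713 for the 3p arm and -0.56 and 0.0969 for the 5p arm.

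MiR-130b-5p was lower in the Ikaros line without overlap at all 6 times, 0 h included, with line differences from 0 h to 18 h of -0.36, -0.49, -0.44, -0.33 and -0.74 in order of time. Their adjusted p-values were 0.247, 0.0475, 0.0689, 0.149 and 8.2e-04, so that those of 2 h and 18 h passed. Over all times its level ran from 10.64 to 11.21 with a median of 10.96 in the 18 control samples, and from 9.91 to 10.95 with a median of 10.46 in the 18 Ikaros samples. At 12 h the lines were barely apart, with 10.64 in the lowest control sample and 10.62 in the highest Ikaros sample. The call at 2 h was lost under 8 of the 11 alternatives, among them any replicate left out (-0.61 to -0.36, adjusted p 0.071 to 0.3186) and the replicate block (0.0549), and that at 18 h without replicate 2 (-0.70, 0.0592). Its difference at 24 h did not exceed that at 0 h beyond the error (-0.29, 95% interval -0.76 to 0.18, adjusted p = 0.455).

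MiR-130b-3p differed little at first. Its line difference lay between -0.15 and -0.05 from 0 h to 12 h with intervals that include 0, and it was -0.36 (SE 0.14, adjusted p = 0.0546) at 18 h, where it passed under 4 of the 11 alternatives. Signs of such small values turned with the scaling, to 0.01, 0.10 and 0.03 at 0, 2 and 12 h under quantile normalization and to 0.01 at 6 h with the sample medians subtracted. The difference at 24 h beyond that at 0 h was -0.47 (adjusted p = 0.134) and beyond that at 2 h -0.54 (adjusted p = 0.0714), neither of them called. A different course of the arms was not shown by the direct test, since the line difference of the 5p arm minus the 3p arm at 24 h was 0.18 beyond 0 h (95% interval -0.43 to 0.80, adjusted p = 0.904) and 0.38 beyond 2 h (95% interval -0.23 to 1.00, adjusted p = 0.560).

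Within the Ikaros line, 4 of the 11 members changed from 2 h to 24 h, against 28.6% of all miRNAs, and miR-130b was among them with both arms. MiR-130b-3p fell by 0.55 (SE 0.14, adjusted p = 0.0045) and miR-130b-5p fell by 0.47 (SE 0.16, adjusted p = 0.0329). Over all 6 times in the Ikaros line, miR-130b-3p (F = 4.31, adjusted p = 0.0224) and miR-301b-5p (F = 12.79, adjusted p = 2.9e-05) passed, 2 of 11 members against 26.7% of all miRNAs. In the control line 0 of 11 passed, against 0.426% of all miRNAs, and none of the members had an unadjusted p under 0.05. Without replicate 1 the fall of the 3p arm was 0.41 with an adjusted p of 0.143 and its F 1.89 with 0.3625, and the fall of the 5p arm was 0.18 with 0.5675. Without replicate 2 these were 0.51 with 0.1494, F = 1.71 with 0.4922 and 0.42 with 0.2715. The calls of both falls were also lost with the sample medians subtracted and in a fit of only the groups compared. Of the 11 alternatives, 7 kept the call for the fall of the 3p arm and 6 that of the 5p arm. A change between 0 h and a later time within a line is also a change of culture batch, which bears on the F-tests and not on the step from 2 h to 24 h. That step can still cross sequencing batches by the design described above, so it rests on the authors' batch correction.

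MiR-301a-3p, the most abundant member, was higher in the Ikaros line at 24 h, with 13.80, 13.27 and 13.30 in the control samples and 14.68, 14.68 and 14.02 in the Ikaros samples. The Ikaros samples were all above the control samples, and the difference of 1.00 (SE 0.41, 95% interval 0.17 to 1.83), a 2.00-fold higher level, had an adjusted p of 0.0498. This is at the threshold, and the call was lost without the mean-variance trend (0.0574), without replicate 1 (1.07, 0.0645) and without replicate 2 (0.80, 0.3362). At the other times the line difference lay between 0.17 and 0.39 with no call, and that at 24 h beyond 0 h was 0.80 (95% interval -0.38 to 1.97). The spread was wide, with a within-group SD of up to 1.05. At 12 h the Ikaros samples read 12.73, 13.29 and 14.75, which covers nearly the whole range of this miRNA.

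The 5p arm of miR-301a, which has the seed of miR-301b-5p, gave no call at any time. It read 6.07, 6.17 and 6.30 in the control samples at 24 h and 6.02, 5.99 and 6.13 in the Ikaros samples, which overlap. The difference was -0.14 (95% interval -0.65 to 0.38), and 0.10 with the sample medians subtracted. Taken over the 3p members together, the summed linear level of the miR-130 family had a mean log2 of 14.22 ± 0.17 (SD, n = 3) in the control line at 24 h and 14.88 ± 0.27 (SD, n = 3) in the Ikaros line. Beneath this sum, miR-130b-3p was lower in the Ikaros line and miR-301a-3p higher.

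MiR-152-5p was the member with the largest line difference. At 24 h it read 3.49, 3.28 and 3.31 in the control samples and 5.62, 5.62 and 5.12 in the Ikaros samples, a difference of 2.09 (SE 0.33, adjusted p = 1.1e-05) or 4.26-fold. The lines did not overlap at any of the 6 times. At 0 h the control samples read 3.69, 3.46 and 3.36 and the Ikaros samples 4.53, 4.56 and 3.80, a difference of 0.80 (95% interval 0.12 to 1.47) that did not pass (adjusted p = 0.179). Over all times the control samples ran from 2.58 to 4.07 with a median of 3.45, and the Ikaros samples from 3.80 to 5.70 with a median of 4.77. From 2 h to 18 h the differences were 1.19, 1.63, 1.21 and 1.60 in order of time, with adjusted p-values of 0.0181, 7.6e-04, 0.0089 and 3.8e-04, all of which passed.

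How far this difference grew with time was less certain. At 24 h it exceeded that at 0 h by 1.30 (SE 0.47, adjusted p = 0.0698) and that at 2 h by 0.90 (95% interval -0.06 to 1.86, adjusted p = 0.199). In the Ikaros line the level rose by 1.08 from 2 h to 24 h (SE 0.33, adjusted p = 0.0151), but by 0.80 with an adjusted p of 0.2079 without replicate 1 and by 1.05 with 0.1259 without replicate 2. The calls at 6, 18 and 24 h held under all 11 alternatives. That at 2 h was lost without replicate 1 (1.23, 0.0834) and without replicate 2 (1.17, 0.1609), and that at 12 h without replicate 1 (1.17, 0.0636), without replicate 4 (0.95, 0.0582) and without 3 libraries described below (0.92, 0.203). In a fit of only the groups compared, the adjusted p was 0.0803 at 2 h and 0.1305 at 12 h.

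MiR-152-3p, the arm with the miR-148 seed, was also higher in the Ikaros line, at a low level. At 24 h it read 2.55, 2.72 and 2.48 in the control samples and 3.60, 3.40 and 3.49 in the Ikaros samples. The control samples of 12 h were spread, with 1.41, 0.92 and 2.59, against 3.40, 3.38 and 2.75. The Ikaros samples were above all control samples at 12, 18 and 24 h. The difference was 1.54 (SE 0.34, adjusted p = 0.0013) at 12 h, 1.41 (SE 0.34, adjusted p = 0.0019) at 18 h and 0.91 (SE 0.34, adjusted p = 0.0327) at 24 h, and 0.34 to 0.64 with no call at the earlier times. The call at 24 h was lost without replicate 1 (0.84, 0.203) and without replicate 2 (1.02, 0.0946), and that at 12 h without replicate 1 (1.31, 0.0733), without replicate 2 (1.08, 0.1446) and in a fit of only the groups compared (0.0865). Beyond 0 h the difference at 24 h was 0.57 (95% interval -0.41 to 1.55).

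The abundant miR-148b arms differed little. MiR-148b-3p read 10.99, 10.91 and 11.15 in the control samples at 24 h and 11.28, 11.33 and 10.84 in the Ikaros samples, which overlap, with a difference of 0.14 (95% interval -0.23 to 0.50). It passed at 6 h only, with 0.53 (SE 0.18, adjusted p = 0.0421), where the control samples read 11.02, 10.34 and 10.74 and the Ikaros samples 11.45, 11.09 and 11.15. That call was lost under 8 of the 11 alternatives, among them the replicate block (0.058), any replicate left out (0.41 to 0.59, adjusted p 0.1022 to 0.3387) and quantile normalization (0.36, 0.1855). MiR-148b-5p gave no call at any time and differed by -0.07 (95% interval -0.59 to 0.45) at 24 h, and by 0.16 with the sample medians subtracted. MiR-148a-3p, which was below 1.85 in every sample, gave no call either, with 0.26 (95% interval -0.38 to 0.89) at 24 h.

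**Figure D3:**
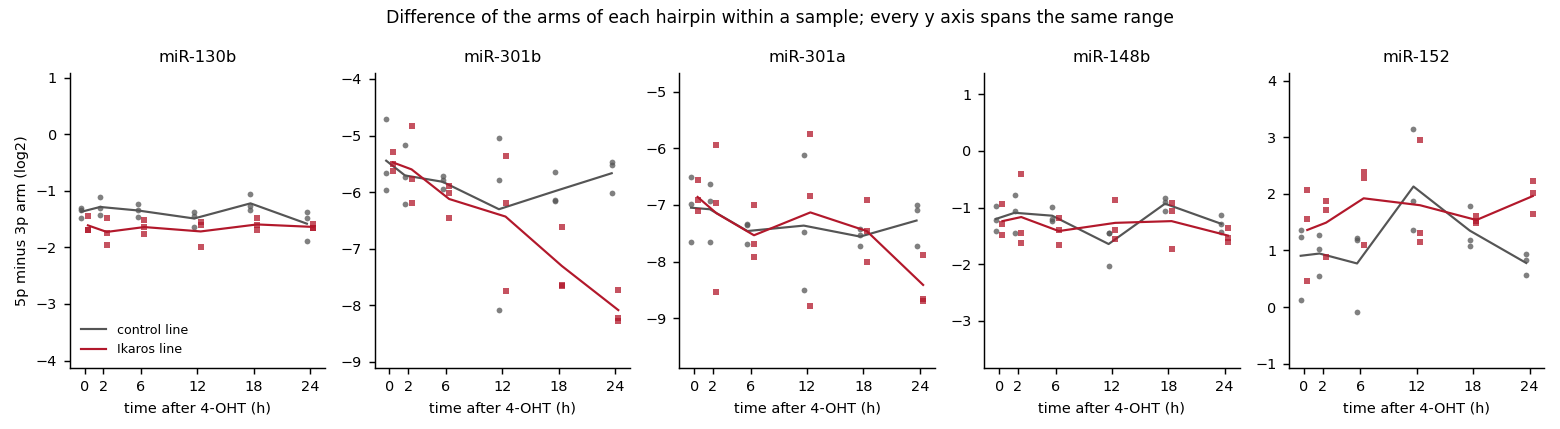
Level of the 5p arm minus that of the 3p arm in the same sample (log2, y axis) against time after 4-OHT (hours, x axis) for the 5 hairpins with both arms measured, where points are samples, lines join the means of 3 per line and time, grey is the control line and red the Ikaros line. The arms of miR-301b move apart in the Ikaros line, to a mean of -8.08 at 24 h against -5.66 in the control line. Whether reads of its 3p arm were told apart from miR-301a-3p was not tested. The arms of miR-130b differ by about -1.6 in both lines at 24 h. Before that, their means were -1.49 to -1.22 in the control line and -1.73 to -1.59 in the Ikaros line.

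Both arms were measured for 5 member hairpins, and the difference of the arms within a sample was fitted over the 129 hairpin names with both arms in the table. This difference does not depend on the scaling of a sample by its median. In miR-301b it uses the 3p arm, which followed miR-301a-3p within groups (r = 0.96). Whether reads of these 3p arms were told apart was not tested, and no mature sequence of miR-301b-3p was at hand to compare. For miR-301b the 5p arm was below the 3p arm at 24 h, with means of -5.66 ± 0.30 (SD, n = 3) in the control line and -8.08 ± 0.30 (SD, n = 3) in the Ikaros line. The line difference of this quantity was -2.42 (SE 0.54, adjusted p = 0.0019), 1 of 5 hairpins called against 11.6% of all hairpin names, and it held under all 11 alternatives (-2.52 to -2.24). Beyond 2 h it was -2.53 (SE 0.76, adjusted p = 0.0469), again 1 of 5 hairpins against 5.43%, and beyond 0 h -2.39 (SE 0.76, adjusted p = 0.0701), 0 of 5 hairpins against 3.10%, where miR-301b was the 1 hairpin with an unadjusted p under 0.05. With a replicate left out, the value beyond 2 h was -2.70 to -2.23 with adjusted p-values of 0.1411 to 0.2014.

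The adjoining hairpin miR-130b did not show this. Its arms differed by a mean log2 of -1.58 ± 0.27 (SD, n = 3) in the control line and -1.64 ± 0.04 (SD, n = 3) in the Ikaros line at 24 h, and the line difference was -0.06 (95% interval -0.49 to 0.38). For miR-301a the line difference of the arms was -1.14 (95% interval -2.33 to 0.06, adjusted p = 0.212) and for miR-148b it was -0.21 (95% interval -0.81 to 0.39). MiR-152 was the member hairpin with the higher 5p arm, and its arms differed between the lines by 1.18 (95% interval 0.18 to 2.18, adjusted p = 0.0966). Tests of one hairpin against another were not made, so the hairpins are given side by side.

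**Figure D4:**
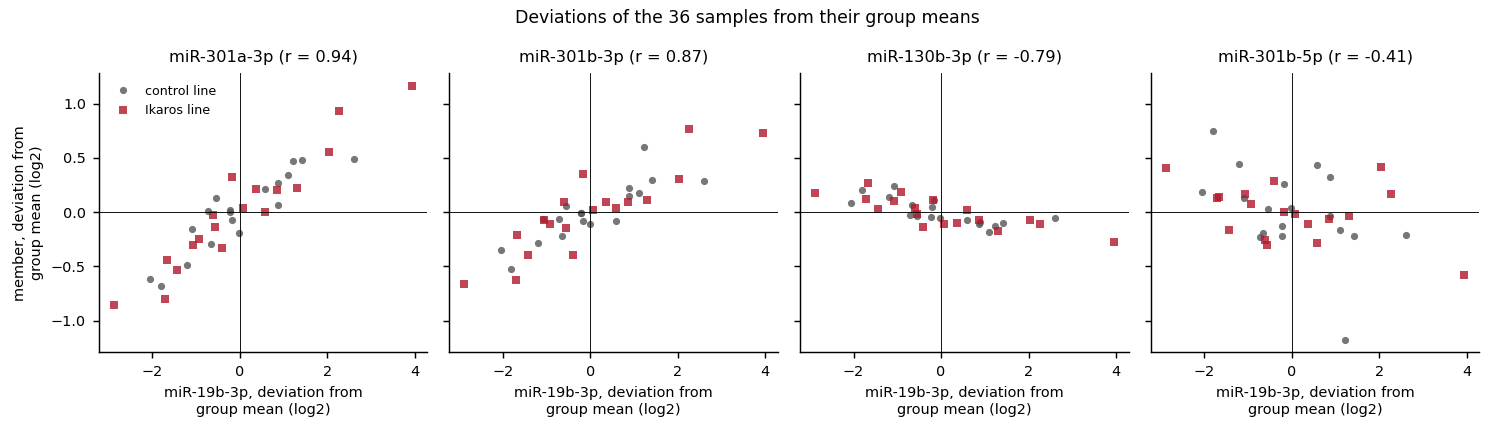
Deviation of 4 members from their group mean (log2, y axis) against that of miR-19b-3p (log2, x axis) in the 36 samples, grey circles for the control line and red squares for the Ikaros line. MiR-301a-3p (r = 0.94) and miR-301b-3p (r = 0.87) rise with miR-19b-3p within groups, miR-130b-3p (r = -0.79) declines, and miR-301b-5p (r = -0.41) scatters.

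Much of the spread between replicates of the abundant members was shared. Within groups, the deviations of miR-301a-3p and miR-301b-3p from the group mean had r = 0.96 over 36 samples. MiR-19a-3p (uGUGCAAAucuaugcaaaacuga) and miR-19b-3p (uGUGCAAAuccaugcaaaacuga) were read beside the members because their seed is that of the miR-130 family shifted by 1 base. MiR-19b-3p is a member of the miR-17-92 cluster, and its spread was wide, with a within-group SD of up to 3.54. Its line difference at 24 h was 0.07 (95% interval -2.52 to 2.66), so it did not separate the lines there.

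Deviations from the group means were correlated with those of miR-19b-3p for each of the 11 members over the 36 samples, with permutations within groups and adjustment over the 11 relations. Permuting each group on its own takes its libraries as independent of those of other groups. Same-numbered libraries of the lines share a culture batch, so the permutation p-values may be too small. Pearson's r was 0.94 (Spearman's rho 0.93) for miR-301a-3p, 0.87 (0.86) for miR-301b-3p, -0.79 (-0.81) for miR-130b-3p and 0.74 (0.78) for miR-152-5p, each with a permutation p of 1e-05 for r and for rho, the smallest that 100000 permutations can give, and an adjusted p of 2.75e-05. Without the 2 samples farthest from the median of miR-19b-3p, r was 0.93, 0.86, -0.78 and 0.69 in this order. It was 0.91, 0.85, -0.77 and 0.58 in the control line and 0.95, 0.88, -0.81 and 0.87 in the Ikaros line. In the culture batches 1, 2 and 3, with 10 samples each, r lay between 0.94 and 0.95 for miR-301a-3p, 0.84 and 0.93 for miR-301b-3p, -0.87 and -0.69 for miR-130b-3p and 0.48 and 0.91 for miR-152-5p, while batches 4, 5 and 6 held too few samples. The relation was computed for the members only. Its share over all miRNAs is not known, so it is not read as particular to the families. Sequencing depth and batch of each sample are not known from the table, and their part was not tested.

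MiR-148b-5p (r = 0.61, rho = 0.61, permutation p = 0.00632 and 0.00422, adjusted p = 0.0116 and 0.00774) and miR-130b-5p (r = -0.58, rho = -0.60, permutation p = 0.00257 and 0.00096, adjusted p = 0.00565 and 0.00211) also passed. Without the 2 farthest samples r was 0.57 and -0.60. For miR-148b-5p r was 0.16 in the control line but 0.86 in the Ikaros line, and 0.03 to 0.77 within culture batches. The other 5 members, miR-301b-5p among them (r = -0.41, rho = -0.33, permutation p = 0.0726 and 0.12, adjusted p = 0.0999 and 0.165), did not pass. The libraries farthest from their group in miR-19b-3p were replicate 4 of the control line at 2 h and replicates 1 and 4 of the Ikaros line at 12 h, all over 2.5 log2 units away.

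Results that rest on the shared spread were therefore computed again. With the level of miR-19b-3p as a covariate, chosen after the data were seen, 7 members passed at 18 h. Calls over all miRNAs at 18 h rose too, from 140 of 469 to 176 of 468. With this covariate miR-301b-3p differed at 24 h by 0.67 (adjusted p = 7.9e-04) and miR-130b-3p beyond 0 h by -0.44 (adjusted p = 0.0278). Without the 3 libraries named above, miR-301b-3p had an adjusted p of 0.0425 at 24 h and miR-152-5p one of 0.0489 beyond 0 h, with the same differences. These libraries are in none of the groups compared there, so only the error estimate changed. Both alternatives take out spread that goes with miR-19b-3p, so the lower adjusted p-values are not read as added support. The interaction and the 24 h calls of miR-301b-5p held in both.

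The miRNAs whose 12 group means were most like those of a member are given as a description, since the group means share their libraries and the time course. Those of miR-301b-5p were miR-24-3p (Pearson's r = 0.960), miR-466f (0.928) and miR-669d-5p (0.923). MiR-466f (0.976) also led for miR-130b-3p, followed by miR-17-3p (0.975), the partner arm of miR-17, and miR-467c-5p (0.960). For miR-130b-5p they were miR-34b-3p (0.949), let-7g-5p (0.948) and miR-34c-3p (0.945). MiR-152-5p was most like miR-532-5p and miR-532-3p (0.975 and 0.967) and to miR-500-5p (0.967), and miR-152-3p was most like miR-542-5p (0.943), miR-872-3p (0.940) and miR-450a-5p (0.926). MiR-322-5p was among the first for both miR-301a-3p (0.944) and miR-301b-3p (0.904), as was miR-29b-2-5p (0.905 and 0.913). The remaining places went to miR-223-3p (0.922), a miRNA of myeloid cells at a mean log2 level of 2.11 here, for miR-301a-3p and to miR-103-3p (0.902) for miR-301b-3p. For the remaining 4 members, miR-301a-5p, miR-148a-3p, miR-148b-3p and miR-148b-5p, the highest r was 0.842, 0.835, 0.871 and 0.890.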

How the data were processed

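Small RNA libraries of 36 samples (TruSeq kit) were analysed. Deposited values are log2 levels after processing by the authors. By the methods they state, reads were aligned with Novoalign to miRBase's mouse miRNA sequences and quantified with multiBamCov, a tool of bedtools. Low miRNAs were removed by CPM in NOISeq, GC bias was removed with cqn, and TMM scaling and ComBat for the sequencing batch followed before technical replicates were averaged. The labels name the build mm10. Versions are not given in the sources used here. Because of these corrections, a line difference at 2 h to 18 h depends on the batch correction, and so does a contrast of 24 h with 2 h.

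Samples were grouped by the labels. The table held 36 columns of samples, all matched, and no identical pair. Differences were fitted with limma 3.58.1 (R 4.3.3, lmFit and eBayes with trend) on the deposited log2 values of all 469 miRNAs, with a mean for each of 12 groups and Benjamini-Hochberg adjustment over all miRNAs, or over 129 hairpin names for arm differences. A call is an adjusted p under 0.05. Same-numbered samples of both lines at a time share a culture batch per the labels, and their deviations correlated (r = 0.26, from 0.06 at 18 h to 0.41 at 6 h). Scripts were tested on simulated data. Correlations used scipy 1.17.1 with 100000 permutations, two-sided, and figures matplotlib 3.10.9. Sequences and hairpins came from RefSeq (GRCm38.p6), with the same hairpin positions in GENCODE.

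Named besides the members are, per member, the 3 miRNAs most alike over group means, those with the same seed, miR-19a-3p and miR-19b-3p, and hairpins within 10000 bases. The members, lists and rules were chosen with earlier results of these data known. Alternatives were the culture batch as a replicate block, median subtraction, quantile normalization, only the groups compared, no trend, leaving out miRNAs with the lowest means (351 kept), each replicate left out and, added after seeing the data, miR-19b-3p as a covariate and 3 libraries left out.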

Additional observations from a re-analysis of the deposited data

Results flagged for a closer look

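In the fit of all samples, the line difference of miR-301b-5p changed with time, which was tested directly. It stood at -1.95 at 24 h beyond 0 h and at -1.94 beyond 2 h, and the interaction of line and time over 6 times had F = 6.42. By limma, the call beyond 0 h was lost without replicate 1 (adjusted p = 0.0821) and that beyond 2 h without replicate 4 (0.0872). That of the interaction was lost with any replicate left out (0.0728 to 0.1082). The line difference of the arms of miR-301b (5p minus 3p) was -2.53 at 24 h beyond 2 h (adjusted p = 0.0469 by limma). This call was lost with any 1 replicate left out, without the trend and without the 3 libraries far from their group in miR-19b-3p. Beyond 0 h the value was -2.39 (adjusted p = 0.0701), which was not called. Groups of 3 samples were not tested for outlying samples.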

How the results depend on the processing

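The replicate block (culture batch) changed 2 of 62 results for single members and hairpins, miR-130b-5p at 2 h and miR-148b-3p at 6 h, so that 1 member was called at 2 h and 1 at 6 h instead of 2 at each, and it changed no other call. Smaller moves in the counts of members called are left out of the list below, which gives those over 1.5 times or to or from 0. At 24 h such smaller moves were to 5 members with sample medians subtracted (4 higher and 1 lower) and to 5 without the trend. Quantile normalization, only the groups compared, the covariate and leaving out the 3 libraries each gave 7 there. Among the listed counts, sample medians subtracted gave 1 at 2 h, and quantile normalization 1 at 6 h and 2 beyond 0 h. No trend gave 1 at 2 h, 1 at 6 h and 0 hairpins for the arm difference beyond 2 h. A fit of only the groups compared gave 0 at 2 h, 1 at 6 h, 0 at 12 h, 2 beyond 0 h, 1 over time in the Ikaros line, 2 for its step between 2 h and 24 h, and for arms 3 hairpins at 24 h and 1 beyond 0 h. It was not run for the interaction, which uses all groups. With the miR-19b-3p covariate the counts were 1 at 0 h, 7 at 18 h, 4 beyond 0 h, 2 beyond 2 h, 3 for the interaction, 5 over time in the Ikaros line, and for arms 3 at 24 h and 1 beyond 0 h. Without the 3 libraries far from their group they were 1 at 2 h, 1 at 6 h, 1 at 12 h, 2 beyond 0 h and 0 hairpins beyond 2 h. With 1 replicate left out they were 0 to 2 at 2 h, 1 at 6 h, 0 to 1 at 12 h, 2 to 5 at 18 h, 2 to 6 at 24 h, 0 to 1 beyond 0 h, 0 to 1 beyond 2 h, 1 to 6 from 2 h to 24 h and 1 to 4 over time in the Ikaros line, 0 for the interaction and 0 hairpins for the arm difference beyond 2 h. The cause of these shifts was not tested, apart from the fewer samples. Counts over all miRNAs also moved, from 140 at 18 h to between 69 and 176 and from 187 at 24 h to between 110 and 224. Those beyond 0 h moved from 58 to between 12 and 100, and those beyond 2 h from 67 to between 19 and 116. For the interaction the count moved from 61 to between 11 and 113. Over time in the Ikaros line it moved from 125 to between 39 and 172.

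Signs turned only for values without a call. Quantile normalization gave 0.011, 0.097 and 0.034 for miR-130b-3p at 0, 2 and 12 h, 0.025 for miR-301b-5p at 6 h, 0.072 for miR-130b-5p at 24 h beyond 2 h and 0.11 for the miR-130b arms at 24 h. Median subtraction gave 0.012 for miR-130b-3p at 6 h, 0.15 and 0.011 for miR-301b-5p at 6 and 12 h, 0.0595 for miR-130b-5p beyond 2 h, and 0.10 and 0.16 for miR-301a-5p and miR-148b-5p at 24 h. The covariate gave 0.090 for miR-301b-5p at 6 h, and leaving out the 3 libraries 0.12 for miR-301b-5p at 12 h and -0.065 for miR-152-3p beyond 2 h. With 1 replicate left out the ranges were -0.13 to 0.0027 for miR-130b-3p at 2 h, -0.055 to 0.053 and -0.73 to 0.45 for miR-301b-5p at 6 and 12 h, -0.062 to 0.68 for miR-148a-3p, -0.24 to 0.17 for miR-148b-5p and -0.0058 to 0.36 for miR-148b-3p at 24 h, -0.16 to 0.62 for miR-152-3p and -0.48 to 0.064 for miR-130b-5p beyond 2 h, and -0.24 to 0.058 for the miR-130b arms at 24 h. MiR-148a-3p has no value when the miRNAs of lowest mean are left out. Depth is unknown from the table, so the floor under the low members miR-148a-3p and miR-152-3p could not be set.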
